A study of Mus musculus with 8 samples.

Results

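The HCN pacemaker channel genes *Hcn2*, *Hcn3* and *Hcn4* were described together with *Pex5l*, which encodes the HCN partner TRIP8b. These 4 genes were taken by their symbols from 24982 genes measured in the mouse amygdala, and all 4 were among the 12870 genes tested. The tissue came from male C57BL/6 mice that drank water with 0.03% aspartame, an artificial sweetener, for 18 wk by the sample labels (aspartame group, 4 mice, 187 to 189 d old) or plain drinking water (plain water group, 4 mice, 187 to 189 d old). The methods of the study give a shorter exposure. The amygdala of each mouse gave 1 RNA library, and each library goes by its group and its number, as in aspartame 1. The labels name no transgene or further treatment in either group, and the tissue was microdissected whole, so that each value is an average over all its cells. The comparison asks whether RNA of the pacemaker channels or of their partner differed with aspartame.

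HCN channels are cation channels of the plasma membrane that open when the membrane hyperpolarizes, and direct binding of cyclic AMP makes them open more readily. The current they carry in neurons sets the resting potential, shapes how dendrites sum their inputs and helps rhythmic firing. TRIP8b is a cytoplasmic protein of neurons that binds the channels, changes how many reach the cell surface and lowers their response to cyclic AMP.

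Values are regularized log2 (rlog) values, which are log2 counts scaled for library size in which weakly counted genes are drawn toward their own mean, so that differences of weakly expressed genes are understated. A difference is the mean rlog of aspartame minus that of plain water. Genes with an adjusted p under 0.05 from limma are referred to as called. The methods of the study left 1 aspartame sample out after principal component analysis without naming it. Aspartame 2 had the lowest mean correlation with the other libraries (0.985, against 0.986 to 0.993 for the others), and each comparison is given without it (7 libraries) and with it (all 8). The counts are not in the table, so the depth of each library is unknown.

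The last 60 coding bases of each channel gene are shown because TRIP8b holds on to the C-terminal end of the channel protein. The capitals mark the last 3 codons before the stop codon.
Hcn2: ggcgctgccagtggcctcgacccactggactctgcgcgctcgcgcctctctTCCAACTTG
Hcn3: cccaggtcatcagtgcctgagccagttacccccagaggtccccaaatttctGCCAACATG
Hcn4: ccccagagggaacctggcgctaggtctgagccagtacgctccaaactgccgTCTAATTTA
*Hcn2* and *Hcn4* end in the same 3 residues although 0 of the 3 codons are identical. *Hcn3* shares 1 residue with each of them.

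The genes differed in base composition, which is shown because the values of the libraries moved with it, as described after them. The first 120 coding bases of each gene follow, with the start codon in capitals.
Hcn2: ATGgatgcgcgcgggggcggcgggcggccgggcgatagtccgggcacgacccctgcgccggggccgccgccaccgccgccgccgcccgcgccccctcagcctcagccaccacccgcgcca
Hcn3: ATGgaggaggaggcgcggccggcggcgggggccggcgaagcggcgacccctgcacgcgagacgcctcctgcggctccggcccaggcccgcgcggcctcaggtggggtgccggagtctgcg
Hcn4: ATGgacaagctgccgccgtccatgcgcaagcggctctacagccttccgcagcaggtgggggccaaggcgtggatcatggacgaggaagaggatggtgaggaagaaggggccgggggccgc
Pex5l: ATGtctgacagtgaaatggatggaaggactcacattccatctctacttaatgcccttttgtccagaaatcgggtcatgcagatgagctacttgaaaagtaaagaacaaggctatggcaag
These stretches were 84.2% G or C in *Hcn2*, 80.8% in *Hcn3*, 66.7% in *Hcn4* and 42.5% in *Pex5l*. Over the whole transcript *Hcn2* had a GC content of 65.4%, higher than that of 99.8% of the genes tested. The transcripts of *Hcn3* and *Hcn4* both stood at 58.0%, near the 90th percentile (90.1 and 89.9), and *Pex5l* at 47.2% was below the median of all genes tested, 49.9%.

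The promoters of *Hcn2* and *Hcn4* were GC-rich as well. The 250 bases before the start of each gene in the RefSeq table are given on GRCm38.p6, plus strand, as chr10:79716384-79716633 for *Hcn2* and chr9:58822699-58822948 for *Hcn4*. The *Hcn2* window abuts the gene start given below from GENCODE, whereas that of *Hcn4* ends upstream of it, as the annotations place the start of *Hcn4* differently. The capitals mark the GC box letters GGGCGG on either strand, the core recognised by Sp1.
Hcn2: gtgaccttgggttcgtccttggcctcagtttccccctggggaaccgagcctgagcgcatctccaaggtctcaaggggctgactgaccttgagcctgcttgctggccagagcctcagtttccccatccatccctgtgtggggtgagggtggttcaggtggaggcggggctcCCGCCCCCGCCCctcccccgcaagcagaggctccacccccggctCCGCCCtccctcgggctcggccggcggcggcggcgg
Hcn4: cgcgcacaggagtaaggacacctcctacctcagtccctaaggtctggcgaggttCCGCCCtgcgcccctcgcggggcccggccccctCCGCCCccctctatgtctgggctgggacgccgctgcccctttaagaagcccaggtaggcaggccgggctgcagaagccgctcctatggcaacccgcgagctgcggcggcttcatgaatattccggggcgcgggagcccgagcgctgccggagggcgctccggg
The *Hcn2* window held 3 matches and the *Hcn4* window 2, and 32.7% of 32851 promoter windows of this length held at least 1. The palindrome TGACGTCA, the full cyclic AMP response element, was in neither window and in 1.55% of all windows. GC content was 70.4% for *Hcn2* and 71.2% for *Hcn4*, against a median of 52.4% over all windows. *Hcn3* and *Pex5l* had no window in the table used.

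On GRCm38 (mm10), *Hcn2* lies on chromosome 10 from 79716634 to 79736108 on the plus strand, with 8 exons and 863 codons. *Hcn3* lies on chromosome 3 from 89146074 to 89160196 on the minus strand, with 8 exons and 779 codons. *Hcn4* lies on chromosome 9 from 58823412 to 58863175 on the plus strand, with 8 exons and 1201 codons. The channel genes thus share their number of exons, and *Pex5l* differs, with 15 exons and 650 codons on chromosome 3 from 32949408 to 33143247 on the minus strand.

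Of these 3 channel genes, *Hcn2* was the most strongly expressed. To compare genes, levels were set per kilobase of transcript, as rlog minus log2 of the length in kilobases. On that scale *Pex5l* averaged 7.47 ± 0.28 (SD, n = 3) in aspartame and 7.41 ± 0.12 (SD, n = 4) in plain water, at the 90.6th percentile of genes tested in plain water. *Hcn2*, a subunit found widely in the brain, averaged 5.41 ± 0.24 (SD, n = 3) in aspartame and 5.20 ± 0.19 (SD, n = 4) in plain water, at the 53.5th percentile. *Hcn2* was therefore a gene of middling level among the genes tested, which leave out genes averaging an rlog under 3, and *Pex5l* a strongly expressed one.

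The other channel genes were near the lower end of the genes tested. *Hcn3*, a subunit with a weak response to cyclic AMP, had a level per kilobase of 2.89 ± 0.32 (SD, n = 3) in aspartame and 2.54 ± 0.16 (SD, n = 4) in plain water, at the 9.90th percentile. *Hcn4*, the main subunit of the sinoatrial node and found in the thalamus as well, had 2.85 ± 0.45 (SD, n = 3) in aspartame and 2.50 ± 0.23 (SD, n = 4) in plain water, at the 9.47th percentile. *Hcn3* and *Hcn4* could not be put in order, because *Hcn4* was above *Hcn3* per kilobase in 4 of 8 libraries and the gap ran from -0.23 to 0.19. The step above them was clear of the spread, with *Hcn2* 2.41 to 2.95 above *Hcn3* and 2.40 to 3.13 above *Hcn4* on the log2 scale in every library. *Pex5l* in turn was above *Hcn2* in every library.

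No member was called with aspartame in the 7 libraries or in all 8. Over the 7 libraries the means of the channel genes were 0.22 to 0.36 higher on the log2 scale in aspartame, and that of *Pex5l* was 0.062 higher, with adjusted p of 0.134 to 0.780 from limma. The background is that 8.81% of the 12870 genes tested were called in that fit, with 6.1% higher and 2.71% lower. Over all 8 libraries 0 of 12861 genes were called (0.0%), and 553 had an unadjusted p under 0.05 (4.3%).

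The rlog of *Hcn2* was 7.32, 6.54, 6.84 and 7.11 in aspartame 1 to 4, against 6.96, 7.10, 6.67 and 6.76 in plain water 1 to 4. Aspartame 1 and 4 were at the top with plain water 2 beside them, aspartame 2 was the lowest of all, and the groups overlapped. Without aspartame 2 the means were 7.09 ± 0.24 (SD, n = 3) in aspartame and 6.87 ± 0.19 (SD, n = 4) in plain water, a difference of 0.22 (SE 0.13, 95% interval -0.064 to 0.50, adjusted p = 0.303 from limma). Over all 8 libraries the difference was 0.081 (SE 0.16, interval -0.28 to 0.44, adjusted p = 0.946). The exact permutation test over the libraries, two-sided as all tests here, gave p = 0.229 for 7 libraries and p = 0.686 for 8, where the smallest p possible is 0.0571 for 7 and 0.0286 for 8. On the linear scale of rlog the interval for 7 libraries runs from 0.956-fold to 1.41-fold.

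*Hcn3* had rlog values of 5.15, 4.31, 4.52 and 4.98 in aspartame 1 to 4, against 4.73, 4.47, 4.58 and 4.36 in plain water 1 to 4. Aspartame 1 and 4 were above every plain water library, aspartame 2 was below every one, and aspartame 3 lay among them. Without aspartame 2 the means were 4.89 ± 0.32 (SD, n = 3) in aspartame and 4.54 ± 0.16 (SD, n = 4) in plain water, a difference of 0.35 (SE 0.14, interval 0.046 to 0.65, adjusted p = 0.134 from limma). The unadjusted p was 0.0277, the only one of the 4 genes under 0.05, and 27.1% of all genes tested had an unadjusted p under 0.05 in the same fit. With all 8 libraries the difference was 0.21 (SE 0.17, interval -0.16 to 0.58, adjusted p = 0.903), and the exact permutation p was 0.171 for 7 libraries and 0.371 for 8.

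For *Hcn4* the rlog was 5.86, 4.98, 4.97 and 5.57 in aspartame 1 to 4, against 5.41, 4.90, 4.97 and 5.16 in plain water 1 to 4. Aspartame 1 and 4 again exceeded all plain water libraries, whereas aspartame 2 and 3 were close to plain water 2 and 3. The means without aspartame 2 were 5.47 ± 0.45 (SD, n = 3) in aspartame and 5.11 ± 0.23 (SD, n = 4) in plain water, a difference of 0.36 (SE 0.18, interval -0.047 to 0.76, adjusted p = 0.238 from limma). All 8 libraries gave 0.23 (SE 0.20, interval -0.20 to 0.67, adjusted p = 0.903), with exact permutation p of 0.229 for 7 libraries and 0.371 for 8. On the linear scale the interval for 7 libraries runs from 0.968-fold to 1.69-fold.

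*Pex5l* had rlog values of 9.30, 9.42, 9.85 and 9.48 in aspartame 1 to 4, against 9.49, 9.34, 9.46 and 9.64 in plain water 1 to 4. Here aspartame 3 was the highest and aspartame 1 the lowest, the reverse of their order in the channel genes. Its means without aspartame 2 were 9.54 ± 0.28 (SD, n = 3) in aspartame and 9.48 ± 0.12 (SD, n = 4) in plain water, a difference of 0.062 (SE 0.12, interval -0.20 to 0.32, adjusted p = 0.780 from limma). All 8 libraries gave 0.032 (SE 0.12, interval -0.23 to 0.30, adjusted p = 0.975), and the exact permutation p was 0.743 for 7 libraries and 0.886 for 8. The groups overlapped for all 4 members with 7 and with 8 libraries, whereas they did not overlap in 23.0% of all genes tested in the 7 libraries and in 3.37% in all 8.

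**Figure D1:**
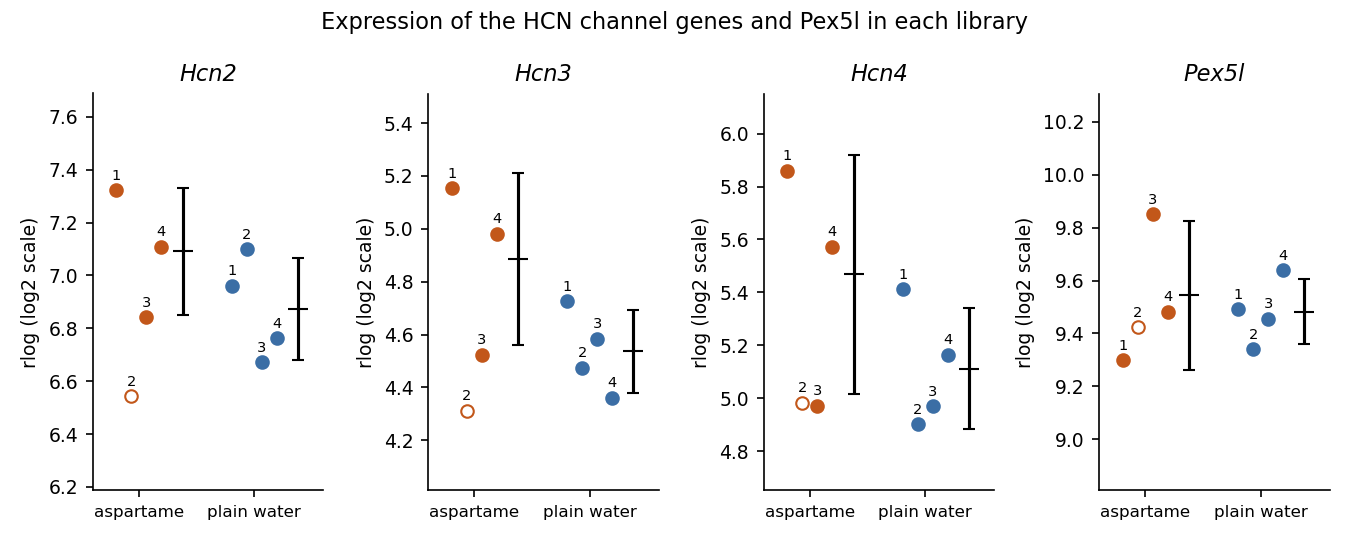
The rlog value (log2 scale) of each channel gene and of *Pex5l* in every library, aspartame in orange and plain water in blue, numbered by replicate, with bars for the mean and SD without aspartame 2 (open circle) and the same range of rlog in every panel. Aspartame 1 and 4 are the highest libraries for *Hcn2*, *Hcn3* and *Hcn4*, and aspartame 3 is the highest for *Pex5l*.

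The spread over the libraries was wide for the channel genes. Over the 8 libraries the SD of rlog was 0.35 for *Hcn4*, larger than for 95.8% of genes tested, 0.30 for *Hcn3* (92.0%) and 0.26 for *Hcn2* (87.6%), and it was 0.18 for *Pex5l* (61.1%). This SD pools both groups and includes aspartame 2, so that it does not measure the spread within aspartame. The values of aspartame 1, 3 and 4 alone spanned 0.48 for *Hcn2*, 0.63 for *Hcn3* and 0.89 for *Hcn4*, against 0.43, 0.36 and 0.51 over plain water 1 to 4. Those of *Pex5l* spanned 0.55 against 0.30, so that a wider span in aspartame was not particular to the channel genes. For *Hcn2* the spans of the groups were close. The size of the differences therefore turned on which aspartame library was in the fit. Without both aspartame 2 and aspartame 3, *Hcn3* differed by 0.53 (adjusted p = 0.0114 from limma) and *Hcn4* by 0.60 (adjusted p = 0.0177), and both were called, with 16.2% of 12868 genes called in that fit of 2 aspartame libraries. *Hcn2* differed there by 0.34 (adjusted p = 0.0821) and *Pex5l* by -0.091 (adjusted p = 0.543), neither of them called. Without aspartame 1 and 2, *Hcn3* differed by 0.22 (adjusted p = 0.364), *Hcn4* by 0.16 (adjusted p = 0.615) and *Hcn2* by 0.10 (adjusted p = 0.671). The adjusted p over all alternatives ran from 0.0114 to 0.903 for *Hcn3*, from 0.0177 to 0.961 for *Hcn4*, from 0.0713 to 0.946 for *Hcn2* and from 0.350 to 0.990 for *Pex5l*.

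The channel genes tended to go up and down together over the libraries. By Pearson's r the relations of *Hcn3* with *Hcn4* and with *Hcn2* passed an adjusted permutation p of 0.05. That of *Hcn2* with *Hcn4* did not, and no relation passed by Spearman's rho. Over the 8 libraries *Hcn3* and *Hcn4* correlated at Pearson's r = 0.90 (permutation p = 0.00774, adjusted p = 0.0308 over 10 relations computed) and Spearman's rho = 0.62 (permutation p = 0.115, adjusted p = 0.230). Without the 2 libraries farthest from the median of *Hcn3*, r was 0.51, so that the relation rests largely on those libraries. *Hcn2* and *Hcn3* correlated at r = 0.81 (permutation p = 0.0154, adjusted p = 0.0308; rho = 0.76, permutation p = 0.0368, adjusted p = 0.0919), with r = 0.52 without the 2 farthest libraries. *Hcn2* and *Hcn4* had r = 0.72 (permutation p = 0.0479, adjusted p = 0.0798; rho = 0.52, permutation p = 0.197, adjusted p = 0.328), with r = 0.42 without the 2 farthest. The relations among the channel genes were much the same with the group means removed, at r = 0.89 for *Hcn3* with *Hcn4*, 0.82 for *Hcn2* with *Hcn3* and 0.72 for *Hcn2* with *Hcn4*. No relation of *Pex5l* with a channel gene passed the threshold by either measure. Its r was -0.39 with *Hcn2*, -0.37 with *Hcn3* and -0.35 with *Hcn4*, with adjusted permutation p of 0.437 each, and its rho was -0.31, -0.19 and -0.048 in the same order, with adjusted permutation p of 0.660, 0.831 and 0.935.

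The balance of partner to channel varied most within aspartame. *Pex5l* was above *Hcn2* per kilobase by 1.58, 2.48, 2.61 and 1.98 in aspartame 1 to 4, against 2.13, 1.85, 2.39 and 2.48 in plain water 1 to 4. The aspartame libraries held both the smallest and the largest gap, and the groups overlapped.

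The values of the channel genes also moved with a property of the libraries, the GC gap, which sets the GC-richest decile of genes against the GC-poorest decile (median level of the first minus median level of the second, each gene relative to its own mean). The GC gap was 0.38, -0.65, 0.032 and 0.46 in aspartame 1 to 4, against 0.20, -0.13, -0.22 and -0.12 in plain water 1 to 4. Aspartame 1 and 4 were thus the libraries in which GC-rich transcripts stood highest, and aspartame 2 the one in which they stood lowest. *Hcn2* belongs to the GC-richest decile itself, and *Hcn3* and *Hcn4* are at its edge (percentiles 90.1 and 89.9). A positive r with the gap was therefore likely beforehand for these genes, and it does not set them apart from other GC-rich genes. How many other genes had such an r was not counted. Over the 8 libraries the GC gap correlated with *Hcn3* at r = 0.87 (permutation p = 0.00288, adjusted p = 0.0288; rho = 0.81, permutation p = 0.0218, adjusted p = 0.0919). It correlated with *Hcn2* at r = 0.83 (permutation p = 0.00962, adjusted p = 0.0308; rho = 0.83, permutation p = 0.0154, adjusted p = 0.0919) and with *Hcn4* at r = 0.79 (permutation p = 0.0124, adjusted p = 0.0308; rho = 0.76, permutation p = 0.0368, adjusted p = 0.0919). Without the 2 libraries farthest from the median GC gap, r was 0.86 for *Hcn3*, 0.75 for *Hcn2* and 0.90 for *Hcn4*. With *Pex5l*, whose GC content is near the middle, r was -0.026 (permutation p = 0.902, adjusted p = 0.902; rho = 0.14, permutation p = 0.752, adjusted p = 0.836) and -0.24 without the 2 farthest.

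**Figure D2:**
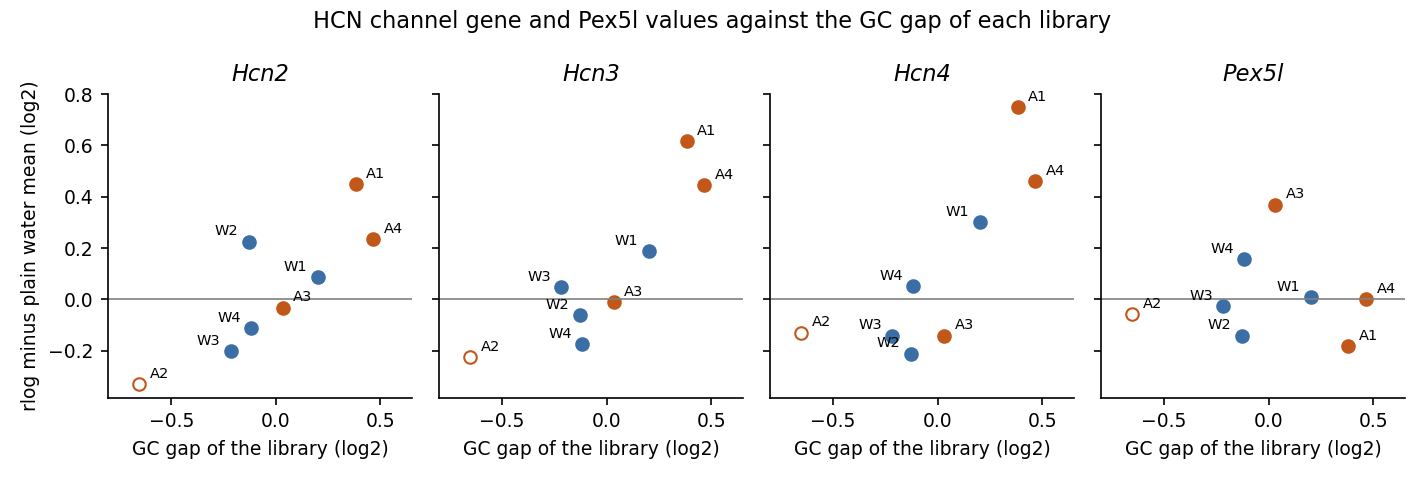
The rlog of each gene relative to its plain water mean (vertical axis, log2) against the GC gap of the library (horizontal axis, log2), with aspartame libraries in orange (A1 to A4, A2 open) and plain water libraries in blue (W1 to W4). For *Hcn2*, *Hcn3* and *Hcn4* the highest points are A1 and A4, at GC gaps of 0.38 and 0.46, and A2, at -0.65, is the lowest for *Hcn2* and *Hcn3* but not for *Hcn4*, while for *Pex5l* the highest point is A3.

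The differences of the channel genes shrank or changed sign once the trend of rlog with GC content and transcript length together was removed within each library and the 7 libraries were fitted again. Removal of GC content alone was not run. *Hcn2* then differed by -0.16 (adjusted p = 0.438 from limma), the opposite sign to that before removal. *Hcn3* differed by 0.088 (adjusted p = 0.692), *Hcn4* by 0.019 (adjusted p = 0.961) and *Pex5l* by 0.096 (adjusted p = 0.667). Over all 8 libraries with the trend removed the differences were -0.13 for *Hcn2*, 0.078 for *Hcn3*, 0.051 for *Hcn4* and 0.038 for *Pex5l*, with adjusted p of 0.734 to 0.935. After removal the r of *Hcn2* was 0.061 with *Hcn3* and 0.12 with *Hcn4*, and that of *Hcn3* with *Hcn4* was 0.70. Whether the GC gap of a library arose in the tissue or in its handling was not tested.

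**Figure D3:**
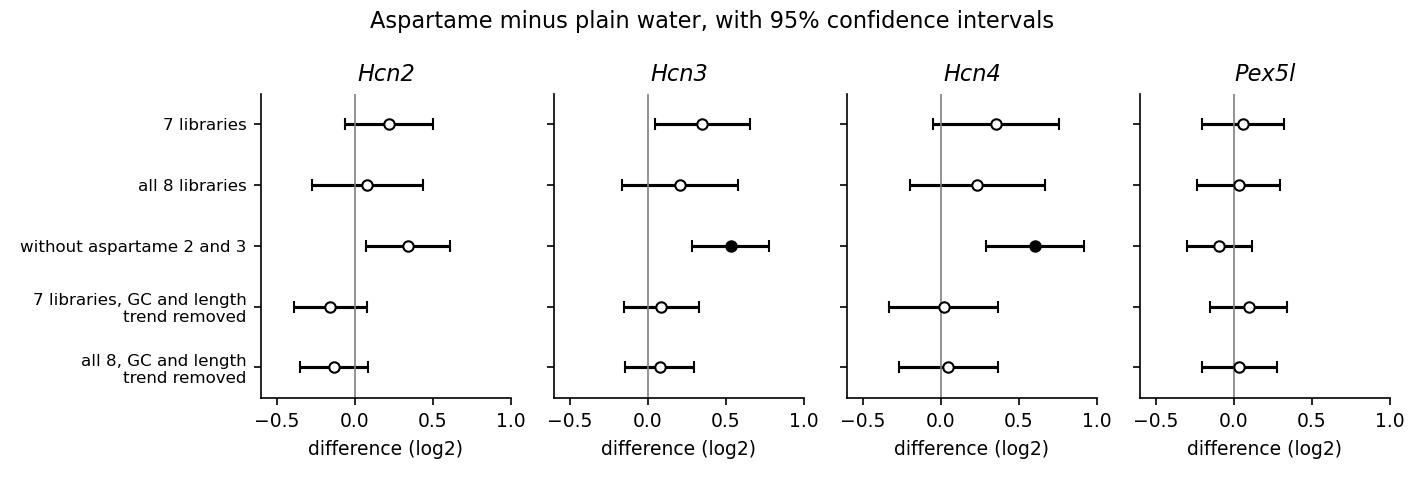
The difference of mean rlog, aspartame minus plain water (log2), of each gene with its 95% confidence interval from limma, in 5 fits from top to bottom. Filled circles are called at an adjusted p under 0.05, which holds only for *Hcn3* (0.53) and *Hcn4* (0.60) without aspartame 2 and 3, and after removal of the GC and length trend the intervals of all 4 genes include 0.

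The genes whose values over the 8 libraries were most like those of each member were ranked among 12860 others by Pearson's r, as a description, since these libraries also differ in GC gap. For *Hcn2* they were *Mn1* (r = 0.992), *Jup* (0.975), *Lama5* (0.973), *Kcnj12* (0.971) and *Eepd1* (0.970). The genes closest to *Hcn3* were *Nop53* (r = 0.982), *Rhpn1* (0.981), *Hrh3* (0.981), *Chchd10* (0.978) and *Rfx1* (0.976), and those closest to *Hcn4* were *Nudc* (r = 0.974), *Myl6b* (0.973), *Kazn* (0.972), *Vat1* (0.972) and *Lzts2* (0.966). *Pex5l* was followed most closely by *Cemip* (r = 0.963), *Tor1b* (0.960), *Olfml2b* (0.957), *Kcng2* (0.951) and *Rnf149* (0.939). At r of at least 0.9 there were 118 genes for *Hcn2*, 283 for *Hcn3*, 98 for *Hcn4* and 28 for *Pex5l*. The median GC content of these genes was 57.4%, 58.3% and 57.0% for the channel genes in that order and 49.1% for *Pex5l*, against 49.9% over all genes tested, so that the close followers of the channel genes were GC-rich like the channel genes. With the GC and length trend removed, the r of the 5 named genes ran from 0.44 to 0.95 for *Hcn2* and from 0.39 to 0.94 for *Hcn3*. It ran from 0.73 to 0.93 for *Hcn4* and from 0.40 to 0.95 for *Pex5l*.

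Markers of the cells in the tissue were read beside the members, since in whole tissue fewer cells of a type and less RNA per cell cannot be told apart. Calls of markers are from the 7 libraries, where 8.81% of all genes were called, and 0 were called over all 8. All 4 excitatory neuron markers were tested and 0 of them were called, and their mean rlog was 7.92, 8.14, 8.45 and 8.20 in aspartame 1 to 4, against 8.08 to 8.21 in plain water. Aspartame 3 was the highest and aspartame 1 the lowest library for these markers, as for *Pex5l*. Their mean had r = 0.895 with *Pex5l* over the 8 libraries, the highest r of the 12 lists with that gene. The 5 oligodendrocyte markers (1 called higher, *Mbp*) had a mean of 8.97 to 9.90 in aspartame, highest in aspartame 1, and 8.98 to 9.36 in plain water. The 5 inhibitory neuron markers (1 called higher) had a mean of 7.98 to 8.36 in aspartame, also highest in aspartame 1, and 7.82 to 8.08 in plain water. The 2 oligodendrocyte precursor markers (1 called higher) had a mean of 7.43, 7.27, 7.32 and 7.54 in aspartame 1 to 4, against 7.23 to 7.32 in plain water, and were highest in aspartame 4 and 1 as the channel genes were in aspartame 1 and 4. The 6 general neuron markers (1 called higher and 1 lower) had a mean of 10.38 to 10.61 in aspartame and 10.39 to 10.51 in plain water. The 6 striatal projection neuron markers (0 called) had a mean of 6.65 to 7.82 in aspartame and 6.48 to 7.19 in plain water. For thalamus or habenula neurons, in which *Hcn4* is strongly expressed, the 5 markers tested of 7 listed (1 called higher, *Tcf7l2*) had a mean of 5.75 to 6.01 in aspartame and 5.53 to 5.69 in plain water. The aspartame range was above the plain water range over all 8 libraries, which held for no other of the 12 lists. In single genes tested the groups did not overlap in 3.37%, a share that need not hold for the mean of a list. The mean of these markers had r = 0.41 with *Hcn4* over the 8 libraries, and within aspartame it was lowest in aspartame 4. The highest r with *Hcn4* were those of the oligodendrocyte precursor (0.82), amygdala neuron (0.81) and inhibitory neuron (0.79) markers. The choroid plexus markers stood at 7.79 in plain water 1, against 5.59 to 6.00 in aspartame and 5.39 to 5.49 in plain water 2, 3 and 4. The 6 amygdala neuron markers (0 called) had a mean of 5.21 to 5.44 in aspartame and 5.18 to 5.46 in plain water. Of the 4 astrocyte, 4 microglia and 4 endothelial cell markers 0 were called. Their means in aspartame and in plain water were 9.14 to 9.48 and 9.15 to 9.51 for astrocytes, 7.17 to 7.32 and 7.21 to 7.46 for microglia, and 6.81 to 6.95 and 6.76 to 7.11 for endothelial cells. The part of these cell types in the values of the channel genes and of *Pex5l* was not tested.

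Genes of the pathway around the channels were counted in 6 lists in the same fit of 7 libraries, beside the background of 8.81% called. In every list 0 genes were called over all 8 libraries, where 1 pacemaking or resting channel gene and no gene of the other lists had an unadjusted p under 0.05. Likewise 0 genes of any list were called after removal of the GC and length trend, although the difference of the peroxin gene *Pex7* was no smaller then. Of the 18 tested binding partners and modifiers of HCN channels, 2 were higher and 0 lower (11.1% called, median difference 0.12, against -0.0042 for all genes). They were *Src*, a tyrosine kinase that acts on HCN channels (difference 0.47, SE 0.096, adjusted p = 0.0175 from limma), and *Apba2*, a synaptic adaptor protein (0.42, SE 0.10, adjusted p = 0.0290). In aspartame 2 both were below the plain water mean, by a difference of -0.52 for *Src* and -0.53 for *Apba2*.

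Cyclic AMP is the direct ligand of the channels, and of 15 tested genes for cyclic nucleotide synthesis 3 were higher and 0 lower (20.0% called, median 0.055). *Adcy5*, an adenylyl cyclase, averaged an rlog of 9.45 ± 0.25 (SD, n = 3) in aspartame and 8.80 ± 0.10 (SD, n = 4) in plain water, a difference of 0.64 (SE 0.11, adjusted p = 0.0107 from limma). It was 8.41 in aspartame 2 and differed by 0.38 over all 8 libraries (adjusted p = 0.903) and by 0.25 with the trend removed (adjusted p = 0.221). The other called genes were *Adcy6*, a related cyclase (0.52, adjusted p = 0.0232), and *Npr2*, a natriuretic peptide receptor that makes cyclic GMP (0.31, adjusted p = 0.0320). PIP2, a membrane phosphoinositide, also eases the opening of HCN channels. Of 10 kinases of its synthesis 2 were higher and 0 lower (20.0% called, median 0.12), namely *Pip5k1c* (0.55, adjusted p = 0.0266) and *Pip4k2b* (0.31, adjusted p = 0.0454).

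Among 7 other tested channel genes with a cyclic nucleotide-binding homology domain, 0 were called (0.0%, median 0.034). The smallest p were those of the ether-a-go-go family potassium channel genes *Kcnh2* (0.49, adjusted p = 0.0578 from limma) and *Kcnh3* (0.44, adjusted p = 0.131). Of 19 tested channel genes of pacemaking and resting conductance, 3 were higher and 0 lower (15.8% called, median 0.16). These were *Cacna1h* (0.65, adjusted p = 0.0107) and *Cacna1i* (0.52, adjusted p = 0.00881), which encode T-type calcium channels that open near rest, and *Kcnk3* (0.40, adjusted p = 0.0462), which encodes a leak potassium channel. With the trend removed these 3 differences were 0.22, 0.081 and 0.12 in the same order. *Adcy5*, *Cacna1h* and *Cacna1i* were called whichever further library was left out of the 7. *Src* lost its call without plain water 3, plain water 4 or aspartame 4 (adjusted p 0.0627 to 0.0656), and *Apba2*, *Adcy6*, *Pip5k1c*, *Pip4k2b* and *Kcnk3* lost theirs without plain water 2, plain water 3, plain water 4 or aspartame 4 (adjusted p 0.0608 to 0.156). *Npr2* lost its call without any of these or without aspartame 1 (adjusted p 0.0710 to 0.119). With age as a covariate *Adcy5*, *Cacna1h* and *Cacna1i* were called, whereas *Src*, *Apba2*, *Adcy6*, *Npr2*, *Pip5k1c*, *Pip4k2b* and *Kcnk3* were not (adjusted p 0.0604 to 0.141). *Pip4k2b* was also not called with no filter on the mean, no mean-variance trend, a median shift or quantile normalization (adjusted p 0.0522 to 0.0665), nor *Kcnk3* with no filter or quantile normalization (adjusted p 0.0626 and 0.0504).

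TRIP8b is related in sequence to the peroxisomal import receptor PEX5, and the peroxin genes were read for that reason. Of 15 tested peroxin genes 0 were higher and 2 lower (13.3% called, median -0.19). They were *Pex3*, a peroxisome membrane biogenesis factor (difference -0.34, SE 0.091, adjusted p = 0.0420 from limma), and *Pex7*, an import receptor for peroxisomal enzymes (-0.32, SE 0.084, adjusted p = 0.0399). *Pex3* lost its call without plain water 2, 3 or 4 or aspartame 1 or 4 (adjusted p 0.0657 to 0.139), and *Pex7* whichever of the 7 libraries was left out (adjusted p 0.0524 to 0.133). Neither was called with age as a covariate (adjusted p 0.123 for *Pex3* and 0.128 for *Pex7*), and *Pex7* was not with the replicate block (adjusted p = 0.0513). With the trend removed *Pex3* differed by -0.16 (adjusted p = 0.303) and *Pex7* by -0.35 (adjusted p = 0.0815), so that the difference of *Pex7* did not shrink. *Pex5l* itself, at a difference of 0.062, did not have the sign of the peroxin median.

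**Figure D4:**
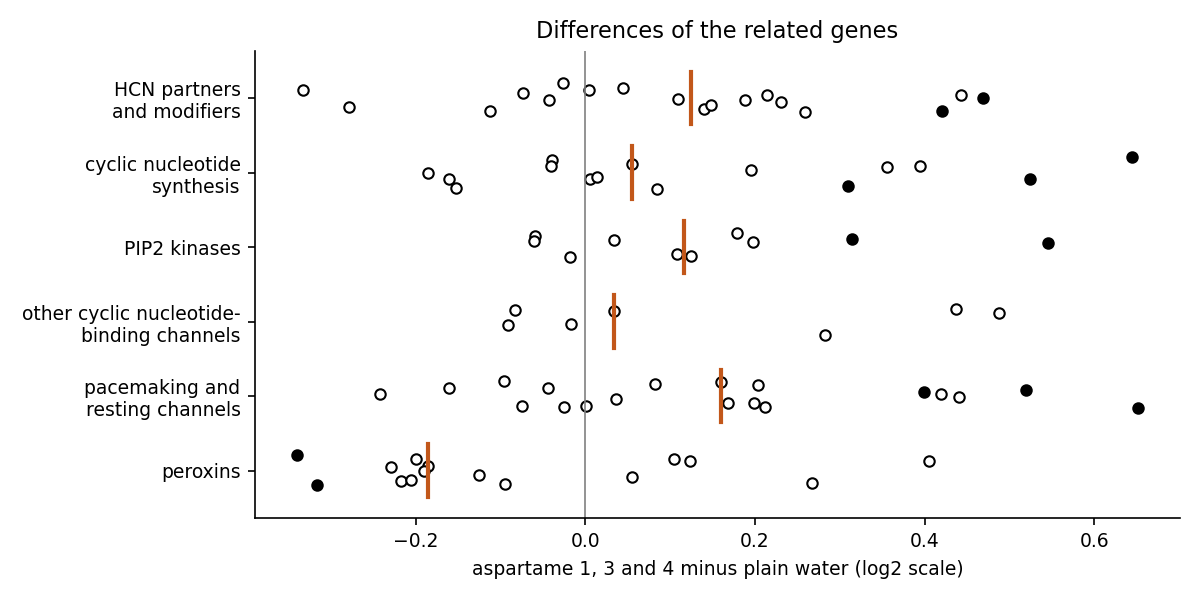
The difference of mean rlog, aspartame 1, 3 and 4 minus plain water (log2), of every tested gene of the 6 lists, with called genes filled and the median of each list as an orange bar. Called genes are on the positive side in 4 lists, on the negative side among the peroxins, and absent from the other cyclic nucleotide-binding channels.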

How the data were processed

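RNA of the amygdala of 8 mice (4 aspartame, 4 plain water, 1 stranded mRNA library each) was sequenced by the authors as paired reads, aligned with STAR to mm10, counted per gene with Salmon and analysed with DESeq2. The deposited log2 values are taken as rlog values from the name of the table, as the methods do not state the transformation. The table holds 24982 genes, of which 6350 have 1 constant value, and no counts, so that depth and counting intervals are unknown. Samples were grouped by their labels.

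Differences were tested in R 4.3.3 with limma 3.58.1, two-sided, using moderated variances that follow the mean level, for genes whose values vary and average an rlog of 3 or more. Adjustment of p was by Benjamini-Hochberg across all tested genes. Aspartame 2 was left out in the comparison given first, following the exclusion of 1 unnamed aspartame sample in the methods. Exact permutation tests and tables used Python 3.11.15 with scipy 1.17.1, numpy 2.4.6 and pandas 2.3.3, and plots used matplotlib 3.10.9. GC content and length are of 1 GENCODE M21 transcript per gene (12787 of the tested genes, 99.4%), and their trend was fitted by natural splines (5 degrees of freedom per term) and subtracted in each library. The limma step was tested on simulated data.

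Named were the 4 members, the 5 genes most like each of them and, from each list, at most 4 of the genes called, replaced by the 2 of lowest p in lists with under 2 calls. *Mbp* and *Tcf7l2* fall outside this rule and were chosen after their values were seen. The members and the lists were chosen with earlier results of these data known. Results were recomputed with all 8 libraries, without each further library, with other filters, without the mean-variance trend, with a median shift, quantile normalization, the replicate number as a block, age as a covariate and trend removal. The replicate block left out plain water 2 wherever aspartame 2 was left out. Trend removal over all 8 libraries was chosen after seeing the data. Some genes are not reported here but are part of the list counts.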

Additional observations from a re-analysis of the deposited data

Results flagged for a closer look

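*Cacna1i*, a T-type calcium channel gene of the pacemaking list, had an rlog of 6.91 in aspartame 2, far below the nearest aspartame library at 7.77, a gap that was 0.898 of the range of the 4 aspartame libraries and more than Dixon's 95% limit allows. This was the only far library in 36 groups examined, where 5% would be marked by chance.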

How the results depend on the processing

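The number of genes called, 1134 over the 7 libraries, was 0 over all 8 libraries, 0 over all 8 with the replicate block and 0 over all 8 with the GC and length trend removed. It was 222 with age as a covariate, 248 with the trend removed and 152 with the trend removed and the replicate block, and it ran from 110 to 2082 when a further library was left out (110 without plain water 3, 215 without plain water 4, 274 without aspartame 4, 371 without plain water 2 and 2082 without aspartame 3). *Hcn2* turned from 0.22 to -0.16 with the trend removed, to -0.074 with the trend removed and the replicate block, and to -0.13 over all 8 libraries with the trend removed. *Hcn4* turned to -0.051 with the trend removed and the replicate block, and *Pex5l* to -0.0028 with quantile normalization. With a further library left out, differences ran from 0.10 to 0.34 for *Hcn2*, from 0.22 to 0.53 for *Hcn3*, from 0.16 to 0.60 for *Hcn4* and from -0.091 to 0.18 for *Pex5l*, and only *Hcn3* and *Hcn4* were called, each without aspartame 3. The trend removal acts on transcript composition by its construction, and the cause of the other changes was not tested. Deviations of libraries with the same replicate number correlated at 0.28, 0.31 and -0.013 for replicates 1, 3 and 4 of the 7 libraries. Over all 8 libraries they correlated at 0.53, 0.15, 0.061 and -0.099 for replicates 1 to 4. These values do not settle whether the numbers pair the mice, and the fit given first does not pair them. With the replicate block and without aspartame 2, plain water 2 was left out as well, because its number then had no partner. In that fit 1379 genes were called, and the differences were 0.29 for *Hcn2*, 0.33 for *Hcn3*, 0.29 for *Hcn4* and 0.015 for *Pex5l*, none of them called. The same differences resulted without plain water 2 and with no block. Of the genes outside the called ones, *Kcnh2* was called under 4 of 19 alternatives and *Kcnh3* under 2. *Hcn3* was not tested at a minimum mean rlog of 5. The values hold no counts, so that the precision of weakly expressed genes such as *Hcn3* and *Hcn4* could not be judged from depth.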
